A study of Mus musculus with 21 samples.

Results

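The contacts of the Satb1 promoter were compared between embryonic stem (ES) cells and fetal brain, in 2 of the 21 libraries of a mouse 4C-seq series. These are all the libraries made from the Satb1 promoter itself in a tissue other than thymus, and they were taken by title, viewpoint label and enzyme pair. The ES library came from the cultured line IB10/E14, grown with leukemia inhibitory factor. The brain library came from C57BL/6 embryos of 14.5 days post coitum, for which brains of 10 to 12 embryos were pooled and the equivalent of 4 brains was used. An adult thymus library of the same viewpoint and enzymes, from 1 thymus of C57BL/6, served as the outside reference. Cells of each kind were fixed with 2% formaldehyde for 10 minutes, and chromatin was cut with NlaIII, ligated, cut with DpnII and ligated again. Each group was 1 library, so no test was possible and no p-value is given. Tissue, developmental stage and strain or line differ together between the libraries and cannot be told apart. 4C reads DNA, so the labelled cell types could not be checked against marker genes. Sequencing depth is unknown for these files, and precision is described only by the spread that the files give within each smoothing window.

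4C-seq starts from 1 chosen DNA fragment, the viewpoint, and counts which other fragments were ligated to it after cross-linking in the nucleus. Signal falls with distance along the chromosome in any cell, because neighbouring stretches of chromatin meet by chance, and a specific contact is seen as a local excess over this decay. Satb1 encodes a nuclear protein that binds AT-rich DNA and organizes chromatin. It is best known for its high level in thymocytes, where it is needed for T cell development, and it is also expressed in some neurons and in pluripotent cells. In the RefSeq gene table the nearest protein-coding neighbours of Satb1 are Tbc1d5, which encodes a GTPase-activating protein of membrane traffic, on the lower-coordinate side and Kcnh8, which encodes a voltage-gated potassium channel, on the higher-coordinate side. Between Satb1 and Kcnh8 the table lists 5 genes, of which 4 are long noncoding RNAs and 0 are protein-coding. Satb1 lies on the minus strand. The viewpoint labelled -6 kb had its highest signal on the higher-coordinate side of the promoter viewpoint and the one labelled +1.5 kb on the lower-coordinate side, so the higher-coordinate side is upstream of the gene and the lower-coordinate side runs into it.

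Annotated Satb1 promoters are shown because the cut sites of the 2 enzymes set which fragment can be a viewpoint. RefSeq gives 5 promoters for Satb1, and the 250 bases before the start are printed for the 2 farthest upstream, from chr17:51833291-51833540 and chr17:51832648-51832897, minus strand, build GRCm38.p6. These positions belong to another build than the mm9 positions of the 4C files and cannot be set beside them. The labels do not say which start the viewpoint primers adjoin, so neither sequence is known to be the bait. Capitals mark the NlaIII motif CATG and the DpnII motif GATC, which read the same on both strands.
Satb1 promoter 1: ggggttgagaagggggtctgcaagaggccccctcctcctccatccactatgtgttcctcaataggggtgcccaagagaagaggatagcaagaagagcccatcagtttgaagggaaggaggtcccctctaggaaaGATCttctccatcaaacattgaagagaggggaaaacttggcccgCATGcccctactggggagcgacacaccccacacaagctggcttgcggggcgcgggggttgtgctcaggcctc
Satb1 promoter 2: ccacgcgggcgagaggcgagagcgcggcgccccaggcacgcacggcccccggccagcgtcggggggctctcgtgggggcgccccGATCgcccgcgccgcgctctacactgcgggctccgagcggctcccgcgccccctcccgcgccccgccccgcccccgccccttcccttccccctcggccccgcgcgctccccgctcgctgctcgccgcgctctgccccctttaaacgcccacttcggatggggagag
The first holds 1 DpnII and 1 NlaIII motif with 40 bases between them and no overlap, and the second holds 1 DpnII motif and 0 NlaIII motifs. Over all 32851 RefSeq promoters of this length, 53.9% held CATG, 41.9% held GATC and 23.5% held both, so neither motif is particular to Satb1.

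The deposited profiles cover chromosome 17 from 51.7 to 53 Mb in mm9, at 1301 positions in steps of 1000 bp. In ES cells and in fetal brain, as in thymus, the highest signal of the 5 kb window lay at 51974000. The position of the promoter viewpoint was taken from these peaks, with 5 kb to either side (51969000 to 51979000), and is not known independently. The highest signal was 1.14 in ES cells and 1.09 in brain, on a scale where the level near the viewpoint is 1. The window thus reached 274 kb to the gene side and 1026 kb upstream. The 10 kb next to the viewpoint on either side were set aside, which left 1275 positions. Each library was divided by its own mean over these, and the quotient is called relative signal.

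By the middle value that the files give for each window, signal lay closer to the promoter in ES cells than in fetal brain, which held more of it far upstream. The higher values of the windows, given below, show a smaller gap. In ES cells 71.6% of the signal lay within 100 kb of the viewpoint, against 50.9% in brain. At 400 to 700 kb upstream the order was turned, with 2.58% of the signal in ES cells and 14.3% in brain. On the upstream side 50% of the signal was reached 57 kb from the viewpoint in ES cells and 168 kb from it in brain, and 90% at 378 kb and 649 kb. On the gene side the libraries were closer, with 50% of the signal within 44 kb in ES cells and 58 kb in brain. These shares and distances compare each library with itself and do not depend on how the libraries are scaled to each other. They do include the flat level of each library, which differs. The commonest value was 0.103 of the library mean in ES cells and 0.184 in brain.

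**Figure D1:**
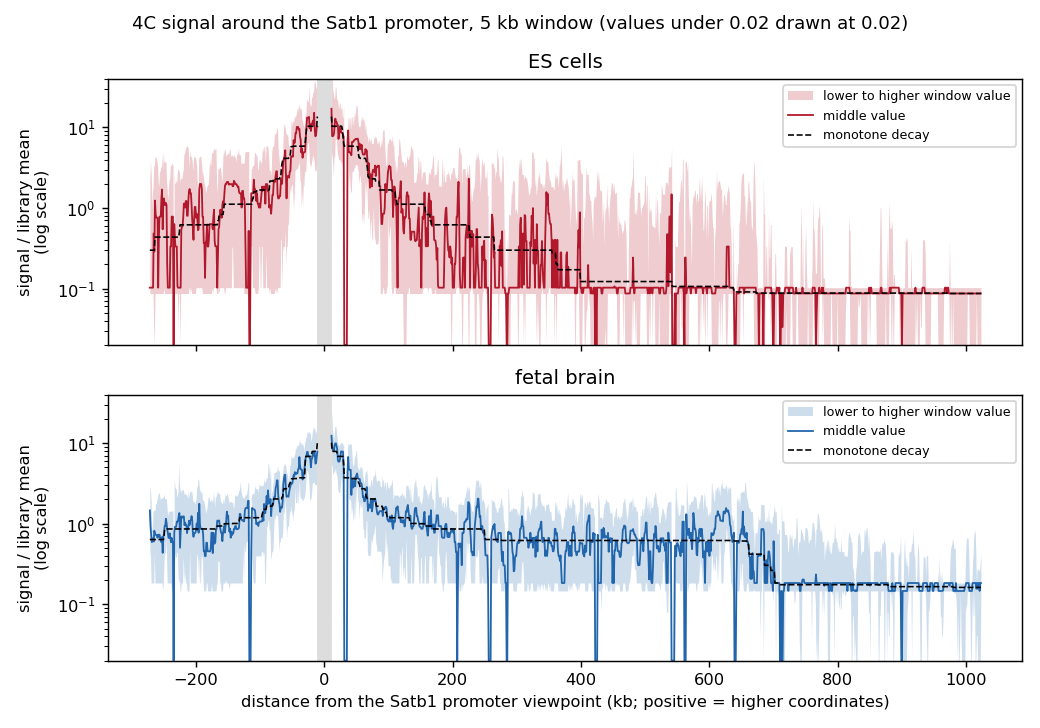
Signal in the 5 kb window divided by the library mean (log scale) against distance from the Satb1 promoter in kb, for ES cells (top) and fetal brain (bottom). Lines are middle values, bands run from the lower to the higher value of the window, dashed lines are the fitted monotone decay and the grey bar covers the 10 kb left out to either side. The ES line lies at or below 0.103 at 94.3% of positions 400 to 700 kb upstream, while the brain line averages 0.610 there and then drops.

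The steeper fall in ES cells held in all windows. The windows smooth the same libraries, so counts over windows, here and below, are not independent and describe only the effect of smoothing. Over the 48 smoothing windows of 2 to 49 kb, the upstream distance that held 50% of the signal ran from 43 to 59 kb in ES cells and from 156 to 170 kb in brain, and it was shorter in ES cells in 48 of 48. The share of signal within 100 kb ran from 70.01% to 76.6% in ES cells and from 50.7% to 52.97% in brain. In a log-log fit over the distances covered on both sides, signal fell with distance with a slope of -1.11 in ES cells and -0.90 in brain. The mean signal within 100 kb was 46.2 times that at 400 to 700 kb upstream in ES cells and 5.91 times in brain, a ratio of 7.81 between the libraries. In thymus it was 8.09 times. The ES mean at 400 to 700 kb, 0.110, lay near the commonest value of that library, 0.103. The 46.2 and the 7.81 thus depend on the flat level of the ES library and do not measure a contact level there.

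**Figure D2:**
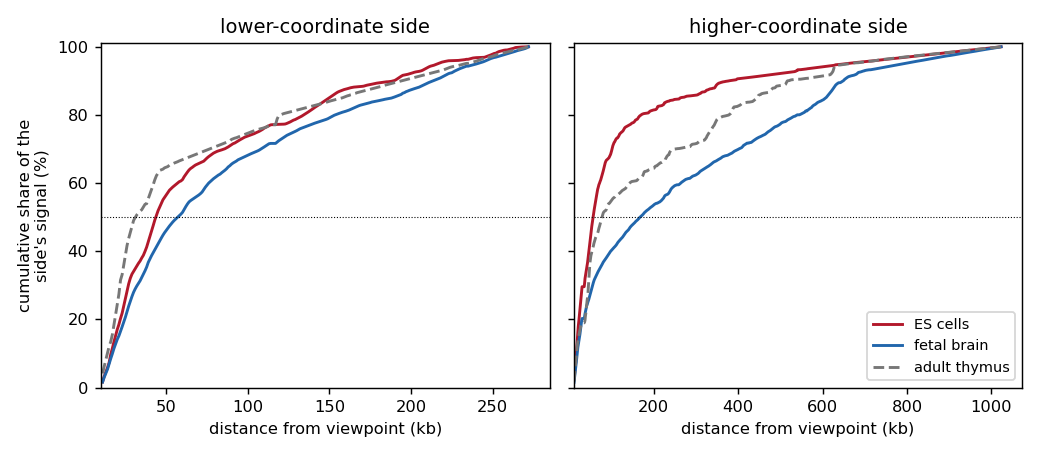
Cumulative share of each side's signal (%) against distance from the viewpoint (kb), beyond 10 kb, for ES cells, fetal brain and, dashed, adult thymus. On the higher-coordinate side the ES curve crosses 50% at 57 kb and the brain curve at 168 kb. On the lower-coordinate side the curves cross at 44 and 58 kb.

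The distance over which each profile stays measurable differed as well. The commonest value of the ES library, a relative signal of 0.103, was held by 30.2% of its positions, and 58.7% of positions lay at or below it. In brain the commonest value was 0.184, held by 19.6% of positions, and 30.04% lay at or below it. No order can be read among positions at these flat levels. The farthest upstream position with more than 2 times the commonest value lay at 630 kb in ES cells and at 700 kb in brain. This distance moved with the window, from 359 to 670 kb in ES cells (median 365) and from 676 to 978 kb in brain (median 690). At 400 to 700 kb, 283 of 300 ES positions were at or below the library's commonest value, against 42 of 300 brain positions. At 200 to 400 kb this held for 51% of the 200 positions in ES cells and 7% in brain. Beyond 700 kb it held for 323 of 323 and 318 of 323.

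Because so many ES middle values sat at the commonest value, the higher values of the windows were read too, a step chosen after the data were seen. The higher value averaged 1.26 at 400 to 700 kb upstream in ES cells, against 1.66 in brain, each relative to the mean of the library's middle values. Beyond 700 kb it averaged 0.175 in ES cells and 0.496 in brain. In all other stretches, on both sides, the higher value averaged more in ES cells. At 100 to 200 kb upstream it was 3.58 in ES cells and 2.35 in brain, and at 200 to 400 kb 2.52 and 1.69. Taken on the higher values, 50% of the upstream signal lay within 0.118 Mb in ES cells and 0.249 Mb in brain, and 9.21% of all signal lay at 400 to 700 kb in ES cells against 17.7% in brain. The shorter distance in ES cells was kept in 48 of 48 windows, with a smaller gap than on the middle values. The higher value of a window was 23.5 times the lower one in ES cells and 7.54 times in brain (median over positions where the lower one is above 0). Values within a window were thus more spread in ES cells, and the part of this in the flat ES stretches was not tested.

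**Figure D3:**
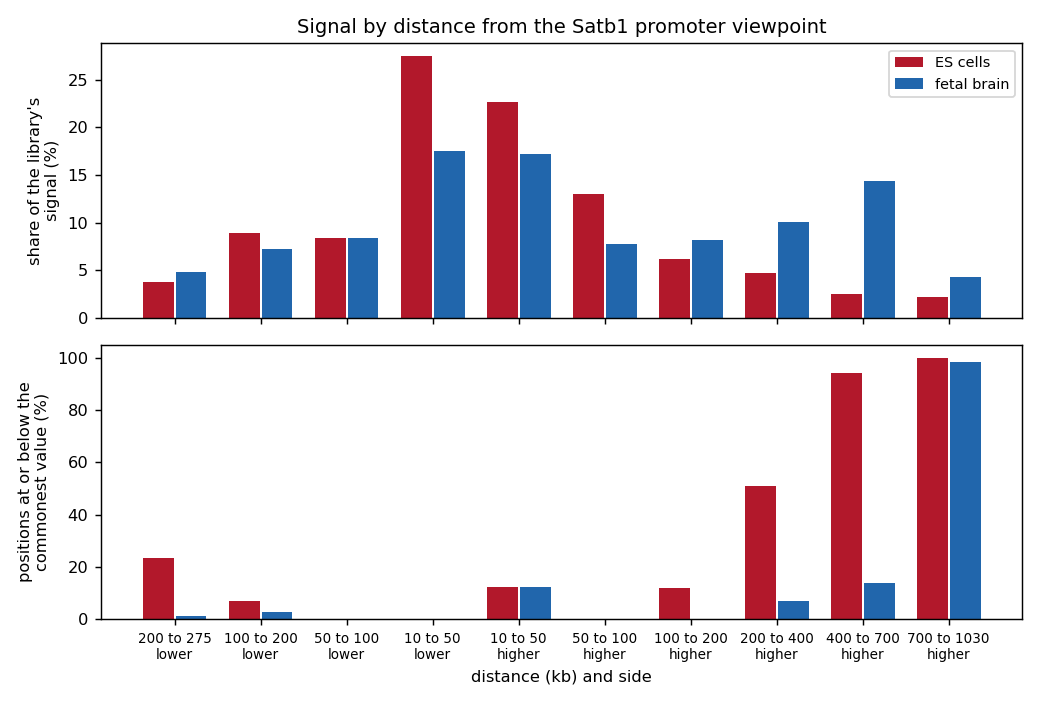
Top, share of each library's signal (%) in 10 stretches named by distance (kb) and side, for ES cells (left bar) and fetal brain (right bar). Bottom, share of the positions of each stretch (%) at or below the library's commonest value. ES cells hold more of their signal at 10 to 50 kb on either side, with 27.5% and 22.7% against 17.5% and 17.2% in brain, and brain holds more at 400 to 700 kb.

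Neither library favoured a side in its total signal, but in ES cells the sides differed by distance. Over distances covered on both sides, the upstream side took 47.4% of the signal in ES cells and 49.8% in brain, and the share in thymus was 86.9%. At 10 to 50 kb the upstream and gene sides averaged a relative signal of 7.23 and 8.75 in ES cells, and 5.49 and 5.58 in brain. Beyond 200 kb, as far as both sides reach, they averaged 0.342 and 0.672 in ES cells, and 0.786 and 0.848 in brain. The log2 ratio of the upstream to the gene side stayed between -0.11 and 0.18 in 4 distance ranges in brain. In ES cells it was -0.28 at 10 to 50 kb and 0.64 at 50 to 100 kb. The upstream means at 10 to 50 kb include 5 of 40 positions, from 52.005 to 52.009 Mb, that were empty in ES cells, brain and thymus. No gene-side position at this distance was empty, so the -0.28 is lowered by these empty positions and carries no side difference by itself. At 100 to 200 kb the log2 ratio was -0.53 in ES cells, and beyond 200 kb -0.98. In thymus it ran from 2.46 to 4.01. On the gene side at 10 to 50 kb the mean was 8.75 in ES cells, 5.58 in brain and 1.97 in thymus, and at 50 to 100 kb it was 2.14 in ES cells, also 2.14 in brain and 0.243 in thymus. Upstream at 10 to 50 kb thymus was highest instead, with 10.9, and ES cells stayed above brain, with 7.23 and 5.49.

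Position by position, relative signal of ES cells was more than 2-fold above brain at 60 of 1275 positions (4.71%) and more than 2-fold below it at 442 (34.7%), with a pseudocount of 10% of the mean. These directions depend on the scale. On the deposited scale, where each library is relative to its own viewpoint level, the mean signal was 4.05-fold higher in brain, and ES cells were past 2-fold higher at 2 positions and lower at 1222. Scaled to the library median, which in ES cells is the commonest value, they were higher at 814 and lower at 16. The median log2 ratio over all positions was -0.60 on the mean scale, -2.62 as deposited and 1.26 on the median scale. Positions where both libraries lay at their commonest value gave a log2 ratio of -0.48 by themselves, so only values well past this carry a difference there. All ratios that follow are on the mean scale, and an ES excess of less than 4.05-fold turns into a deficit as deposited.

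The positions lower in ES cells lay mostly 100 to 700 kb upstream. Most of the 1275 positions lie more than 100 kb upstream in any case, because the measured window reaches farther on that side. Those positions number 100 at 100 to 200 kb, 200 at 200 to 400 kb, 300 at 400 to 700 kb and 323 beyond. Of the 442, 403 (91.2%) lay more than 100 kb upstream, in ES cells 356 were at or below the commonest value, and 15 of their 65 unbroken runs held 10 positions or more. The longest ran from 52.426 to 52.479 Mb, 452 to 505 kb upstream, where ES cells averaged 0.102 and brain 0.631. The next ran from 52.568 to 52.612 Mb, 594 to 638 kb upstream, with 0.121 in ES cells and 0.975 in brain. By stretch, 249 of 300 positions at 400 to 700 kb and 56.5% of those at 200 to 400 kb were lower in ES cells, against 34.7% over all positions. These counts use the middle values. On the higher window values ES cells averaged more than brain at 200 to 400 kb, with 2.52 against 1.69. At 10 to 50 kb 0 of 40 positions on either side were lower and 4 of 40 on each side were higher. Within 50 kb the 2 profiles followed each other closely, with an SD of the log2 ratio of 0.34 on the gene side and 0.41 upstream.

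Of the 60 positions higher in ES cells, 16 (26.7%) lay more than 100 kb upstream, where most of all positions lie. The longest run, 15 positions from 51.826 to 51.84 Mb, lay on the gene side, where ES cells averaged 1.96, brain 0.826 and thymus 0.158. Middle values ran from 1.83 to 2.17 in ES cells and from 0.670 to 0.935 in brain over these positions, which were picked for this excess. The windows themselves overlapped at each of them. On the deposited scale the order there is turned, as the excess is below 4.05-fold. At 50 to 100 kb upstream 13 of 50 positions were higher in ES cells, against 4.71% over all positions, with means of 3.33 in ES cells and 1.99 in brain. No position was past 2-fold higher in ES cells in all 48 windows, while 217 of the 1231 positions measured in all windows (17.6%) were past 2-fold lower in all of them, at 176 to 662 kb upstream. A ratio of any size above 1 in all windows was seen at 9.83% of the 1231 positions, 56 of them on the gene side.

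**Figure D4:**
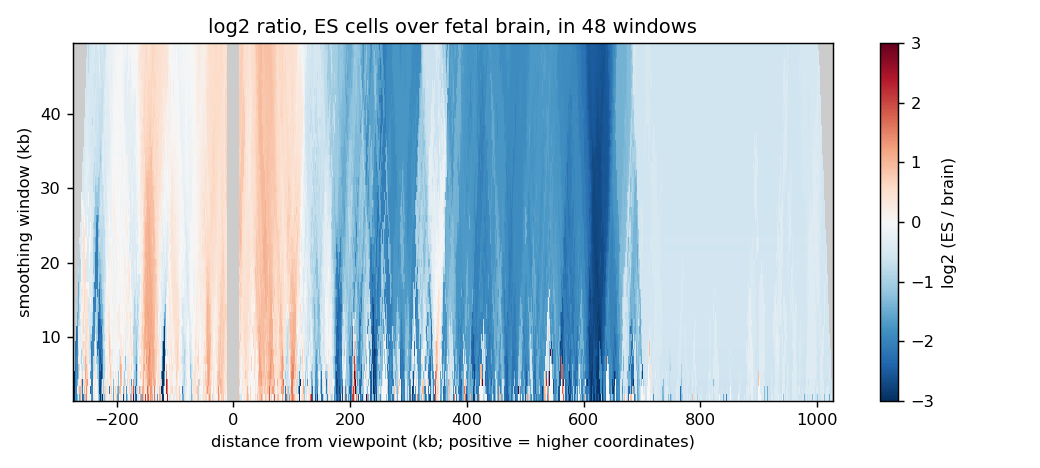
Log2 ratio of relative signal, ES cells over fetal brain, at each distance from the viewpoint (kb, horizontal) and each smoothing window (kb, vertical), with red for higher in ES cells, blue for higher in brain and grey for no value. Ratios are on the mean scale and shift down by the 4.05-fold difference of the means on the deposited scale. Blue fills 172 to 322 kb and 362 to 681 kb upstream at 49 kb, with a mostly paler stretch between.

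At the widest window the upstream deficit of ES cells past 2-fold lay in 5 runs, of which 2 held 151 and 320 of the 478 positions. They ran from 52.146 to 52.296 Mb and from 52.336 to 52.655 Mb, 172 to 322 kb and 362 to 681 kb upstream. In the 49 kb window the first averaged 0.181 in ES cells and 0.706 in brain, and the second 0.0937 in ES cells and 0.615 in brain. Between them, 3 positions at 358 to 360 kb were also lower. An O/E maximum of ES cells at 52.320 Mb, 346 kb upstream, lay between them too.

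The upstream signal of brain fell to its flat level before the end of the window, in several steps. In bins of 25 kb it averaged 1.02 at 600 to 625 kb and 0.794 at 625 to 650 kb. It then averaged 0.510 at 650 to 675 kb, 0.414 at 675 to 700 kb and 0.169 at 700 to 725 kb. Over spans of 50 kb, the steepest fall of brain beyond 400 kb lay at 52.668 Mb. The mean fell to 0.176 past this point, against 0.507 before it, a change of 2.88-fold. In ES cells the 50 kb before and after that point averaged 0.0941 and 0.0840, both within the flat level. The steepest fall of ES cells beyond 400 kb lay at 52.375 Mb, 401 kb upstream, where the mean was 0.0985 after and 0.204 before. This is the first position of the stretch searched, so a steeper fall nearer to the promoter was not looked for. The steepest fall of thymus lay at 52.642 Mb, 668 kb upstream, where brain fell as well, by 2.65-fold. These points were picked from the profiles and are descriptions.

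Specific contacts were read as observed over expected (O/E), the signal divided by the monotone decay of its own library. A pseudocount of 10% of the library mean was added to both terms. It draws O/E toward 1 where signal and decay are near that size, as at the commonest value of ES cells, 0.103. O/E does not depend on the scaling. It was past 2-fold higher in ES cells than in brain at 88 positions (6.9%) and lower at 8.86% of positions, and 84.2% lay within 2-fold. With the decay of each library divided out, the share of lower positions was thus 8.86%, against 34.7% before. Across positions, log2 signal of the 2 libraries had a Spearman's rho of 0.805, and log2 O/E one of 0.149. For O/E rho ran from -0.28 to 0.28 over the 48 windows. Neighbouring positions share fragments, and the decay with distance is common to the libraries, so these values are descriptions over 1275 positions.

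The highest O/E of brain was at 52.600 Mb, 626 kb upstream. Relative signal there was 0.103 in ES cells (window values 0.00469 to 1.10), 1.56 in brain (0.891 to 3.02) and 5.08 in thymus (0.230 to 12.4). The ES value equals the commonest value of that library. O/E was 0.982 in ES cells, 2.31 in brain and 9.36 in thymus. The brain signal exceeded that of ES cells past 2-fold in 48 of 48 windows, with a log2 ratio of -3.04 at 5 kb and -2.56 at 49 kb. In the 49 kb window brain kept 1.03 and an O/E of 1.57, against 0.0926 in ES cells. On the higher window values the log2 ratio was -1.73, so this site was lower in ES cells by either reading. The highest O/E of thymus, at 52.601 Mb, lay 1 kb from it.

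The second maximum of brain, at 52.213 Mb or 239 kb upstream, lay 2 kb from another thymus maximum at 52.211 Mb. Relative signal was 0.206 in ES cells (0.0870 to 4.93), 2.05 in brain (0.463 to 3.499) and 2.79 in thymus (0.230 to 18.5), with the ES and brain windows overlapping. O/E was 0.572 in ES cells, 2.24 in brain and 3.44 in thymus. Close by, at 52.215 Mb, the log2 ratio of ES cells over brain was -3.05 and past 2-fold in 48 of 48 windows. On the higher window values it was -0.06 there, so the deficit was in the middle of the window and not at its upper end. The remaining maxima of brain were at 52.626 Mb with O/E 2.13, 51.702 Mb with 2.12, at the edge of the measured window, and 52.549 Mb with 2.03. In the 20 kb window brain had an O/E of 1.08 at 52.213 Mb, 1.02 at 52.626 Mb and 1.13 at 52.549 Mb, against 1.73 at 52.600 Mb, and 51.702 Mb had no value there.

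The listed maxima of ES cells were at other positions than the listed ones of brain, though 52.199 Mb was high in both. The first, 52.515 Mb with O/E 7.10, lay 541 kb upstream, with a relative signal of 1.48. In brain and thymus the lower, middle and higher value of that window were all 0, so neither gives a level to set against it. In ES cells its O/E was 0.472 in the 2 kb window and 1.00 in the 20 kb window. The second, at 52.320 Mb and 346 kb upstream, had a relative signal of 1.57 (0.0870 to 3.89) in ES cells, 0.463 (0.146 to 1.74) in brain and 3.25 (0.230 to 17.96) in thymus. O/E was 4.19 in ES cells, 0.784 in brain and 3.99 in thymus. In ES cells it stayed at 1.77 in the 20 kb window and 1.89 in the 49 kb window, against 0.991 and 0.982 in brain. The other maxima of ES cells were at 52.372 Mb with O/E 3.63, 52.199 Mb with 3.36 and 51.721 Mb with 3.36. At 52.199 Mb brain had a relative signal of 1.85 and an O/E of 2.03. That position lies 14 kb from the brain maximum at 52.213 Mb, within the 20 kb spacing, so it could not be listed for brain. In ES cells 52.372 Mb came to 0.940 in the 10 kb window and 52.199 Mb to 1.33 at 10 kb and 1.00 at 20 kb. At 51.721 Mb, 253 kb to the gene side, O/E in ES cells was 0.369 in the 2 kb window and 2.39 in the 20 kb window, where brain had 1.01 and thymus 0.348, and the 49 kb window does not reach it.

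None of the 5 maxima of ES cells had a maximum of brain within 10 kb, and none of the 5 of brain had one of ES cells. Of all positions, 7.45% lay within 10 kb of a brain maximum and 8.24% within 10 kb of an ES maximum. At these shares 0 of 5 is no result about the maxima. Of the 5 maxima of brain 2 (40%) had one of thymus within 10 kb, which is also 2 of the 5 (40%) of thymus, and 8.24% of all positions lay that near to a thymus maximum. At the 5 thymus maxima, a choice made after the data were seen, O/E over 5 kb to either side was above 1 at 2 in ES cells and at 4 in brain. Over all positions it was above 1 at 40.1% in ES cells and at 53.1% in brain, and 1 of the 4 in brain was 1.01. At 52.601 Mb it was 1.39 in ES cells, 2.04 in brain and 4.69 in thymus. At 52.211 Mb it was 0.634 in ES cells, 1.44 in brain and 2.44 in thymus, and at 52.151 Mb 0.430, 1.17 and 2.21. At 52.360 Mb ES cells had 0.741, brain 0.990 and thymus 2.79. At 52.300 Mb the order of the first 2 was turned, with 1.39 in ES cells, 1.01 in brain and 2.94 in thymus.

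The other Satb1 viewpoints gave fixed targets. At the -470 kb site, measured 446 kb upstream (52415000 to 52425000), O/E was 0.912 in ES cells and 0.874 in brain, a log2 difference of 0.06. The relative signal was 0.103 in ES cells, with mean lower and higher values of 0.0870 and 1.50, and 0.529 in brain, with 0.150 and 1.43. The ES signal equals the commonest value of that library, so its O/E, its percentile of 31.6 and the difference of 0.06 cannot rank the site in ES cells. In brain the site lay at percentile 24.4. Percentiles are among positions at 0.5 to 2 times its distance. The whole stretch at 400 to 700 kb averaged 0.110 in ES cells and 0.610 in brain. The viewpoints labelled +1.5 kb and -6 kb lie 4 and 3 kb from the promoter viewpoint, too near for a decay. As deposited, signal there was 0.176 and 0.617 in ES cells and 0.379 and 0.916 in brain.

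Most of the largest single differences in the 5 kb window did not stay past 2-fold in all wider ones. Those at 52.215 and 52.600 Mb did, and 51.702 Mb has no value in most of them. Of the 5 positions with the largest excess of ES cells in the 5 kb window, 52.515, 52.182 and 52.320 Mb had turned to a deficit at 20 kb, with log2 ratios of 3.98, 2.52 and 1.57 at 5 kb and -1.54, -1.61 and -0.25 at 20 kb. The 3.98 at 52.515 Mb is set by the pseudocount, since the brain window is at 0, and is 7.22 with a pseudocount of 1% and 1.99 with 50%. The position 51.860 Mb gave 1.57 at 5 kb and -0.37 at 20 kb. Of these 5, only 52.075 Mb, on the upstream side, stayed higher in ES cells in 48 of 48 windows on the mean scale, with 1.56 at 5 kb and 0.48 at 49 kb. Its signal was 3.34 (0.483 to 7.12) in ES cells and 1.06 (0.300 to 2.72) in brain, and the log2 ratio is -0.45 as deposited. The largest deficit of ES cells, -3.32 at 51.855 Mb, lay 5 kb from the excess at 51.860 Mb and came to 0.42 at 49 kb. At 52.088 Mb the log2 ratio was -3.11 at 5 kb and 0.017 at 10 kb. At 51.702 Mb, the last position on the gene side, it was -2.94, with values in only 4 windows.

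**Figure D5:**
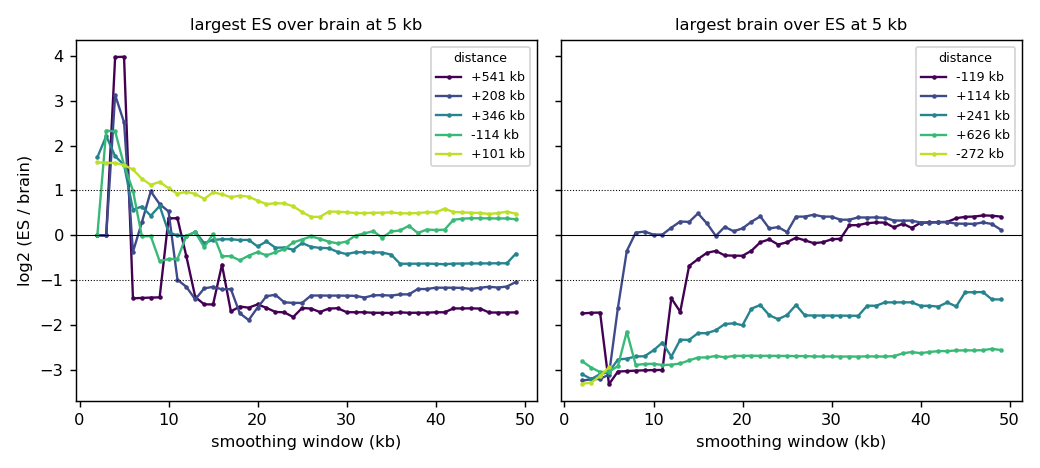
Log2 ratio of relative signal, ES cells over fetal brain on the mean scale, against smoothing window (kb) at the 5 positions with the largest excess (left) and the 5 with the largest deficit (right) of ES cells in the 5 kb window. Dotted lines mark 2-fold. The positions at +626 and +241 kb stay past 2-fold in all windows, the one at 52.075 Mb, the nearest of the upstream positions in the left panel, stays above 0, and 6 others cross 0. As deposited, the ratios at 52.320, 51.860 and 52.075 Mb are below 0.

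Read by the spread within windows, 5 positions had the lower value of ES cells above the higher value of brain (0.392%), and at all 5 the brain window was at 0 throughout, so these are empty windows and give no level. At 195 positions (15.3%) the higher value of ES cells lay below the lower value of brain. Of these, 170 were beyond 700 kb, where both libraries are flat, so the ranges there differ in the flat level alone. Another 24 lay at 400 to 700 kb and 1 at 200 to 400 kb. At all other positions the windows of the 2 libraries overlapped.

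Empty positions were largely shared. In 22 positions, in 8 stretches, ES cells, brain and thymus all had no signal, the longest from 52.005 to 52.009 Mb. Brain was empty at 15 further positions where ES cells were not, and ES cells at 0 where brain was not.

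How near the libraries were to each other and to thymus depended on the measure. The SD of the log2 ratio over positions was 1.02 for ES cells over brain, 1.52 for ES cells over thymus and 1.19 for brain over thymus. For log2 O/E the SDs were 0.76, 1.28 and 1.15. Spearman's rho of log2 signal was 0.805 for ES cells with brain, 0.537 for ES cells with thymus and 0.619 for brain with thymus. For log2 O/E it was low in all pairs, at 0.149, 0.109 and 0.154. The share of positions within 2-fold gave another order, with 60.6%, 64.2% and 54.5%. ES cells were past 2-fold above thymus at 239 positions (18.7%) and below it at 218 (17.1%), and brain was above thymus at 452 (35.5%) and below it at 10% of positions. These comparisons share libraries and are given side by side. The 1 technical pair of the series, the 1/16 and the full template library of the Hba-a1 promoter in fetal liver, had an SD of 1.05 for log2 signal and 0.88 for log2 O/E over 325 positions. The 1/16 library was past 2-fold above the full one at 219 of these (67.4%) and below it at 6 (1.85%). Both SDs of ES cells over brain lay below those of this technical pair, while its Spearman's rho of log2 O/E was 0.769, against 0.149 for ES cells with brain. That pair comes from another locus with other enzymes, and its spread includes the loss of template.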

How the data were processed

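The members and the lists of positions were chosen with earlier results of these data known. The deposited files hold a signal that the authors normalized, per the labels of these files, and that is given for 48 running windows of 2 to 49 kb, with 3 columns per window (middle, higher and lower value). Window sizes were read from the unfilled ends of the columns, and no label says which quantiles the outer columns hold. The build, per the submitters' processing notes, is mm9. No aligner, filter or read numbers are stated in the labels. From these values relative signal, log2 ratios and O/E were computed with Python 3.11.15, numpy 2.4.6, pandas 2.3.3, scipy 1.17.1 and scikit-learn 1.9.0 (isotonic regression over both sides). Log2 ratios and O/E carry a pseudocount of 10% of the library mean, added to both terms. Targets reach 5 kb to either side. A position counts as different past 2-fold, the fold used in place of a test. Named positions are the other Satb1 viewpoints, up to 5 maxima of O/E above 1 per library and up to 5 largest ratios per direction, spaced by 20 kb or more and taken from the top 25% of a library by signal (for ratios, of either library). Grids of the template pair were matched within 500 bp. The functions were tested on simulated data. Other windows, exclusion zones, pseudocounts and scalings were tried. Promoter sequences are from RefSeq (GRCm38.p6), matched by symbol.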

Additional observations from a re-analysis of the deposited data

How the results depend on the processing

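No paired analysis was possible because each group had 1 library. Shares of signal and the 50% and 90% distances were within 1.5 times their 5 kb values in all settings run for them except with the higher window values, which gave ES cells 0.118 Mb for 50% of the upstream signal and 9.21% at 400 to 700 kb. The settings for 50% and 90% distances, for shares by distance, for named positions and for higher window values were added after the data were seen. Positions past 2-fold higher in ES cells (4.71%) were 2.36%, 1.27% and 0.0812% with the 10, 20 and 49 kb windows, 3.11% with 5 kb left out, 2.12% with a pseudocount of 50%, 2.43% with the higher window values, 63.8% scaled to the median and 0.157% as deposited. Lower positions (34.7%) were 13.6% with a pseudocount of 50%, 12.2% without positions at either library's commonest value, 8.86% with the decay divided out, 1.25% scaled to the median and 95.8% as deposited. The SD of the log2 ratio was 0.600 with a pseudocount of 50%. Spearman's rho of log2 signal was 0.906 at 20 kb and 0.926 at 49 kb, and that of log2 O/E 0.284 at 2 kb, -0.0513 at 20 kb and -0.284 at 49 kb. Positions with separate window ranges (15.7%) were 24.8% at 49 kb, 27.8% as deposited and 3.69% without the commonest values. Log2 ratios of named positions changed sign at 10 kb for 51.860 (-0.53) and 52.088 Mb (0.017), at 20 kb for 52.515 (-1.54), 52.182 (-1.61), 52.320 (-0.25), 51.860 (-0.37) and 52.088 Mb (0.16), at 49 kb for 52.515 (-1.72), 52.182 (-1.04), 52.320 (-0.41), 51.855 (0.42) and 52.088 Mb (0.13), as deposited for 52.320 (-0.45), 51.860 (-0.45) and 52.075 Mb (-0.45), and on the higher window values for 51.855 (0.077) and 52.088 Mb (0.38). The scalings add a constant, and the cause of the other changes was not tested. The log2 O/E difference at the -470 kb site ran from -0.09 to 0.20 over its settings. Depth is unknown, so no counting interval can be given.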

Other observations

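The flat level that ends each profile was itself unlike between the libraries. As deposited, the highest signal at the viewpoint was 1.14 in ES cells and 1.09 in brain, while the commonest value of brain was 7.24 times that of ES cells. Lower window values were 0 at 6.27% of positions in ES cells and 7.45% in brain.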
